A study of Mus musculus with 20 samples.

Results

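The genes described here form the BMP-hepcidin axis of the liver together with Tsku and Bmper, which encode secreted proteins that bind bone morphogenetic proteins (BMPs) outside the cell. They are Tsku, Bmper, Bmp6, Smad6, Smad7, Id1, Id3, Atoh8, Hamp and Hamp2, found by gene name in the count table, 10 of its 55421 gene identifiers. Tsku and Bmper were chosen by their measured difference between the arms at 6 months, and the other 8 were added as the ligand, the inhibitors and the target genes of the pathway they belong to. For this reason the 6-month difference is given for all 10 genes as a description, without a test. All 10 genes were among the 22867 with at least 10 counts in total that entered the fit, and each had more than that in every group taken alone.

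Poly(A) RNA was sequenced in bulk from 20 mouse livers, 5 in each of 4 groups. All mice were wildtype C57BL/6 animals labelled female, injected retro-orbitally at 6 months of age with an AAV8 vector that carried Cas9 of Staphylococcus aureus under the Tbg promoter (saCas9) and a U6-driven guide RNA. The guide targeted either Hira, whose product places histone H3.3 into chromatin (Hira-guide livers), or the Rosa26 locus as control (Rosa26 livers), and livers were taken at 3 weeks or 6 months after injection. The Tbg promoter is active in hepatocytes, so Cas9 was directed to these cells while the RNA came from the whole liver. In such bulk RNA, fewer cells of a type and less RNA per cell cannot be told apart.

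The libraries held 19916430 to 24079736 counts. Hira itself had 128 to 171 counts in Rosa26 livers and 87 to 127 in Hira-guide livers at 3 weeks (log2 fold change −0.48 ± 0.14 SE, edgeR adjusted p = 0.197, n = 5 per group) and differed by −0.10 ± 0.14 at 6 months (edgeR adjusted p = 0.794). The 6-month value was −0.16 ± 0.14 if replicate 5 of the Hira-guide livers was left out and 0.03 ± 0.13 on log2(FPKM + 1). The counts of the arms did not overlap at 3 weeks, did overlap at 6 months, and the gene was called at neither time. For this vector the study reports loss of HIRA protein by western blot, which RNA counts do not measure. Replicate 5 of the Hira-guide livers at 6 months had 9 counts of Xist, against 6286 to 8436 in the other 19 libraries, and 2041 counts over 4 Y-linked genes, against at most 13, which goes against its female label. Fold changes that this library enters are given below with and without it, for single genes or for a group of them. All 6 hepatocyte markers, all 8 sinusoidal endothelial markers and all 8 stellate markers had counts in every library.

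Hepatocytes adjust plasma iron by secreting hepcidin, the product of Hamp, which blocks the iron exporter ferroportin. BMP6, made largely by sinusoidal endothelial cells, is bound by receptors and the co-receptor hemojuvelin on hepatocytes, and the signal passes through receptor-activated SMAD proteins and SMAD4 to BMP elements in the Hamp promoter. The same signal switches on Id1, Id3, Atoh8 and the inhibitory SMADs, of which SMAD6 and SMAD7 close a feedback loop, and inflammation reaches the same promoter through STAT3. Mice have a copy of Hamp next to it, Hamp2.

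The promoters of the hepcidin pair are shown because the same 60 bases hold the elements for both inputs, and because the copies differ within one of them. Both stretches are from the RefSeq promoter table (GRCm38.p6), minus strand, 5′ to 3′. Capitals mark the core of the BMP element (GGCGCC) and the STAT element (TTCNNNGAA).
Hamp, chr7:30944092-30944151, bases −122 to −63 from the start: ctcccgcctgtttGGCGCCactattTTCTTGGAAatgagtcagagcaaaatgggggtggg
Hamp2, chr7:30924241-30924300, bases −119 to −60 from the start: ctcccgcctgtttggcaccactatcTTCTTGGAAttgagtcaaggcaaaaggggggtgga
Positions are counted from the RefSeq start, which lies 3 bases inside the GENCODE gene for Hamp and 500 bases inside it for Hamp2, so the Hamp2 stretch lies within the gene as GENCODE gives it (381 bases from its start). The stretches differed at 7 of 60 bases. Counted from 1 at the 5′ end of the stretch, the change G17A lies inside the BMP element core, so these letters are present in Hamp (−109 to −104) and not in Hamp2, while the STAT element is present in both (−97 to −89 and −94 to −86).

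Of the 10 genes, 8 had an entry in the promoter table (9 windows), and Id1 and Smad7 were not searched. Among their 250 bases before the start, searched on both strands, GGCGCC was found in Hamp and in none of the other 7, whereas 9.59% of 32851 promoters of the same length hold it. TTCNNNGAA was found in Hamp and Hamp2 and in 7.02% of all promoters. The short SMAD element CAGAC, present in 42.2% of promoters, was found in Hamp, Hamp2, Bmp6 and at 2 places in Id3, and the E-box CACGTG, which helix-loop-helix factors bind and which 6.02% of promoters hold, was found in Atoh8 and Bmp6. A match of letters is a description and not a bound site.

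The last 25 codons and the stop codon of the hepcidin genes are shown because they encode the mature peptide and because reads within them tell the copies apart. Capitals mark the bases at which the copies differ (GRCm38, minus strand, 5′ to 3′).
Hamp, chr7:30942477-30942554: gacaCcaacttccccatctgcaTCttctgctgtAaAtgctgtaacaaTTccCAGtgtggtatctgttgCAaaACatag
Hamp2, chr7:30922508-30922585: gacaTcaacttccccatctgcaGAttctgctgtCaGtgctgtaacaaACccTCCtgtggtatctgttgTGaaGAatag
Of these 78 bases, 14 differed. The coding sequences are 252 bases long in both genes and were identical at 236 of them (93.7%), and the longest run shared by the transcripts was 87 bases. How reads that match both copies were counted is not stated, so the split between Hamp and Hamp2 is uncertain.

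**Figure D1:**
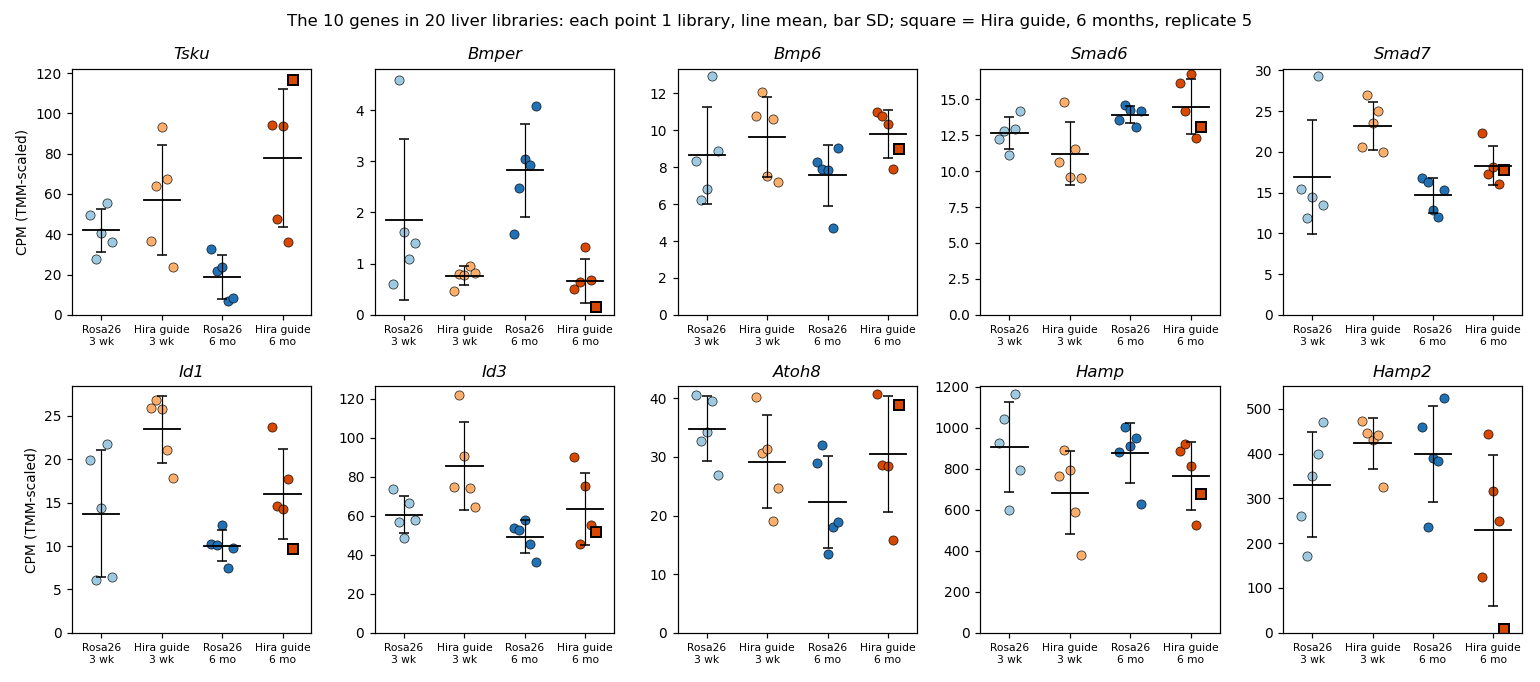
Level of the 10 genes in each library, in CPM (counts scaled to library size by TMM), on linear axes that start at 0. Each point is 1 library, lines are means and bars are SD over 5 libraries, and the square is replicate 5 of the Hira-guide livers at 6 months. Tsku and Bmper separate the arms at 6 months in opposite directions, while the libraries of the arms overlap for the other 8 genes at both times.

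Levels between genes were compared per length, on the deposited FPKM values (fragments scaled to gene length and library size). In Rosa26 livers at 3 weeks the median FPKM of Hamp was 3081 and that of Hamp2 was 1272, with libraries at 2174 to 4282 and 656 to 1850. The ID genes and Tsku followed far below, with medians of 43.0 for Id3, 15.3 for Id1 and 14.8 for Tsku, and Atoh8 lay beside them at 15.65. The libraries of Id1 (6.48 to 24.4), Atoh8 (11.9 to 17.9) and Tsku (9.91 to 21.5) overlapped, so the order of these 3 genes was not resolved. Smad6 had a median FPKM of 4.02, Smad7 of 2.96 and Bmp6 of 1.99. The libraries of Smad7 (2.32 to 6.40) overlapped those of both others, while every library of Smad6 (3.65 to 4.75) lay above every one of Bmp6 (1.52 to 3.40). Bmper was lowest at 0.382. In Hira-guide livers at 6 months, Tsku had a median FPKM of 37.7 and ranked below Id3 alone (44.0) after the hepcidin genes, and the libraries of Tsku and Id3 overlapped (14.1 to 38.7 against 33.9 to 72.4).

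Tsku (ENSMUSG00000049580.12, chromosome 7, 98350668 to 98361328, minus strand, GRCm38) encodes Tsukushi, a secreted small leucine-rich proteoglycan that the liver releases into blood. At 6 months, replicates 1 to 5 of the Rosa26 livers had 32.9, 21.5, 23.9, 7.04 and 8.44 CPM of Tsku. The Hira-guide livers had 94.5, 47.6, 93.7, 36.1 and 117 CPM. Every Hira-guide library lay above every Rosa26 library, and levels were spread widely in both groups.
At 3 weeks the Rosa26 livers had 49.5, 27.8, 40.4, 55.5 and 36.2 CPM of Tsku and the Hira-guide livers had 36.9, 63.8, 93.1, 67.6 and 23.9 CPM. The arms overlapped, with 3 Hira-guide libraries above all controls and 1 below all of them.

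The log2 fold change of Tsku between the arms was 2.05 ± 0.41 (SE, 5 against 5 livers) at 6 months, a 4.14-fold higher level, and 1.86 ± 0.41 without replicate 5 of the Hira-guide livers. This is the difference that chose the gene and carries no test. At 3 weeks, in livers that did not enter the choice, the arms differed by 0.45 ± 0.39 (95% interval −0.33 to 1.22, edgeR adjusted p = 0.842). In the control arm the mean level was 41.9 ± 10.9 CPM (SD, n = 5) at 3 weeks and 18.8 ± 10.9 CPM at 6 months, a log2 difference of −1.16 ± 0.40, and in the Hira-guide arm it was 57.0 ± 27.2 and 77.7 ± 34.3 CPM, a difference of 0.45 ± 0.39 (0.25 ± 0.40 without replicate 5). The 6-month livers of these differences are those that chose Tsku, so no test is given for them. In the mean, controls were lower and Hira-guide livers were higher at 6 months than at 3 weeks.

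Bmper (ENSMUSG00000031963.8, chromosome 9, 23223076 to 23485200, plus strand) encodes a secreted BMP-binding protein of endothelial cells that can limit or promote BMP signaling. Its counts were low. At 6 months, replicates 1 to 5 of the Rosa26 livers had 37, 53, 71, 63 and 89 counts. The Hira-guide livers had 13, 14, 32, 14 and 3 counts. Every Hira-guide library lay below every control, and the lowest count was that of replicate 5.
At 3 weeks the Rosa26 livers had 12, 92, 35, 24 and 30 counts and the Hira-guide livers had 10, 17, 16, 22 and 17. The control arm held both a library at the level of the Hira-guide livers and, in replicate 2, the highest count of the gene in the series.

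The log2 fold change of Bmper at 6 months was −2.07 ± 0.46 (SE), a 4.19-fold lower level, and −1.83 ± 0.45 without replicate 5 of the Hira-guide livers, given without a test because it chose the gene. At 3 weeks it was −1.28 ± 0.46 (95% interval −2.18 to −0.37, edgeR adjusted p = 0.366), and it moved to −0.63 ± 0.40 (edgeR adjusted p = 0.864) without Rosa26 replicate 2. The change with time was 0.60 ± 0.43 in Rosa26 livers and −0.18 ± 0.49 in Hira-guide livers (0.05 ± 0.47 without replicate 5), given without a test. The deposited FPKM of Bmper in replicate 5 was 0.162 and thus not the lowest of its group (0.112 to 0.346), which the 3 counts would make it, so the counts and the FPKM values of this library differ for the gene.

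Past the thresholds of the study (adjusted p under 0.05 and an absolute log2 fold change above 1), 76 genes (0.332%) were called at 6 months, and Tsku and Bmper were both among them by the way they were chosen. Among all tested genes, 1.41% had all Hira-guide libraries above all controls at 6 months and 1.74% had all below, as Tsku and Bmper did. When single libraries were left out, the log2 fold change was 1.84 to 2.35 for Tsku and −2.49 to −1.83 for Bmper. On the log2(FPKM + 1) and log2(FPKM + 0.1) scales, which understate the change of low genes, that of Bmper was −0.50 and −1.43.

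At 3 weeks, 26 genes (0.114%) were called, none of them a member. DESeq2 and limma on FPKM called 0 members as well. At an unadjusted p under 0.05 there were 4 of 10 members, Bmper, Smad7, Id1 and Id3, against 8.87% of all genes tested, and none kept an adjusted p under 0.05. No member had arms that did not overlap at 3 weeks, where 1.45% of all genes had every Hira-guide library higher and 1.24% had every one lower.

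**Figure D2:**
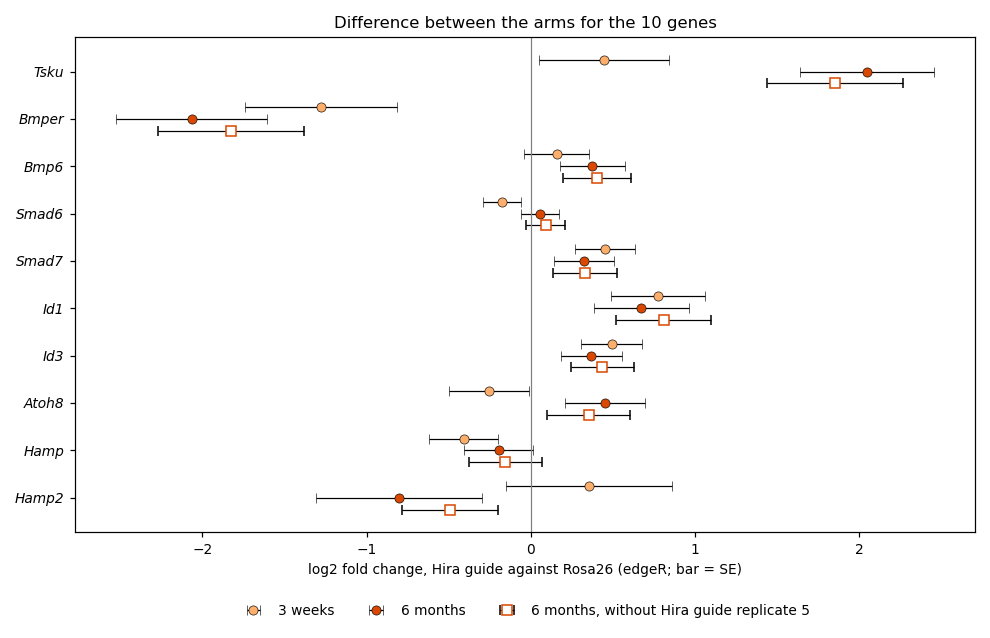
Log2 fold change of Hira-guide against Rosa26 livers for the 10 genes at 3 weeks and 6 months, from the edgeR fit; points are estimates and bars are SE, with 5 livers per group. Open squares leave out replicate 5 of the Hira-guide livers at 6 months. Tsku lies near 2 and Bmper near −2 at 6 months, the ID genes and Smad7 lie above 0 at both times, and the 6-month value of Hamp2 moves from −0.80 to −0.49 without the replicate.

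Bmp6 (ENSMUSG00000039004.6, chromosome 13, 38345107 to 38500302, plus strand) encodes the BMP that rises with liver iron and drives hepcidin. Its level was 6.24 to 12.9 CPM in Rosa26 livers and 7.20 to 12.1 CPM in Hira-guide livers at 3 weeks. The difference on the log2 scale was 0.16 ± 0.20 (95% interval −0.23 to 0.54, edgeR adjusted p = 0.904). At 6 months the controls had 8.28, 7.92, 7.87, 4.73 and 9.04 CPM and the Hira-guide livers 11.0, 10.8, 10.4, 7.92 and 9.00 CPM, a log2 fold change of 0.38 ± 0.20 (0.41 ± 0.21 without replicate 5). The 3 highest libraries were of the Hira-guide arm, and the lowest was Rosa26 replicate 4. Bmp6 shares 224 exon bases with Txndc5 on the opposite strand, which had 85887 counts against 3910 of Bmp6 over all libraries. Whether the counting used the strand is not stated, so reads of Txndc5 in these bases could not be told apart.

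The summed level of the 8 sinusoidal endothelial markers, the cells that make BMP6, was 265 to 344 CPM in Rosa26 and 284 to 329 CPM in Hira-guide livers at 3 weeks, and 167 to 312 against 203 to 339 CPM at 6 months. All 8 markers had a positive log2 fold change at 6 months, from 0.18 to 0.52, and none was called, with the lowest edgeR adjusted p at 0.112 for Oit3. Without replicate 5 of the Hira-guide livers the 8 values were 0.32 to 0.60 and none was called. Their part in the values of Bmp6 and Bmper was not tested.

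Neither inhibitory SMAD was called. Smad6 (ENSMUSG00000036867.7, chromosome 9, 63953076 to 64022059, minus strand) competes for SMAD4 and had 11.1 to 14.2 CPM in Rosa26 and 9.49 to 14.8 CPM in Hira-guide livers at 3 weeks (log2 fold change −0.18 ± 0.12, edgeR adjusted p = 0.741). At 6 months its log2 fold change was 0.06 ± 0.11, the smallest of the 10 genes, and 0.09 ± 0.12 without replicate 5 of the Hira-guide livers.
Smad7 (ENSMUSG00000025880.11) blocks the type I receptors and lowers hepcidin. It had 305, 239, 312, 649 and 291 counts in Rosa26 livers and 446, 576, 487, 571 and 419 counts in Hira-guide livers at 3 weeks. Replicate 4 of the controls exceeded all Hira-guide libraries, while the other 4 controls lay below all of them. The arms differed in log2 terms by 0.46 ± 0.18 (edgeR adjusted p = 0.443), and without that control it was 0.75 ± 0.12 (edgeR adjusted p = 0.0287), still under the fold threshold. At 6 months the log2 fold change was 0.32 ± 0.18 (0.33 ± 0.20 without replicate 5), with 4 Hira-guide libraries above all controls.

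Among the targets, the ID genes encode proteins that bind helix-loop-helix factors and keep them from DNA. Id1 (ENSMUSG00000042745.9, chromosome 2, 152736251 to 152737410, plus strand) had 19.9, 6.04, 14.4, 21.8 and 6.47 CPM in Rosa26 livers at 3 weeks and 25.9, 26.8, 25.8, 21.02 and 17.9 CPM in Hira-guide livers. The controls fell into a low and a high range, and 3 Hira-guide libraries exceeded all of them.
At 6 months the controls had 10.2, 10.2, 12.5, 7.50 and 9.73 CPM of Id1 and the Hira-guide livers 23.7, 14.6, 14.3, 17.8 and 9.61 CPM. Here 4 Hira-guide libraries lay above all controls, and replicate 5 lay within them.
The log2 fold change of Id1 was 0.77 ± 0.29 at 3 weeks (95% interval 0.21 to 1.34, edgeR adjusted p = 0.393). At 6 months it was 0.67 ± 0.29, and 0.81 ± 0.29 without replicate 5 of the Hira-guide livers.

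Id3 (ENSMUSG00000007872.3, chromosome 4, 136143497 to 136145755, plus strand) had 48.6 to 73.5 CPM in Rosa26 livers and 64.3 to 122 CPM in Hira-guide livers at 3 weeks, with 4 Hira-guide libraries above all controls (log2 fold change 0.49 ± 0.19, edgeR adjusted p = 0.401). At 6 months the ranges were 36.4 to 57.9 and 45.6 to 90.2 CPM, and the log2 fold change was 0.37 ± 0.19 (0.44 ± 0.19 without replicate 5).
Atoh8 (ENSMUSG00000037621.8, chromosome 6, 72206177 to 72235577, minus strand) encodes a helix-loop-helix factor induced by BMP6 that raises Hamp transcription. Its difference between the arms had a different sign at each time, −0.25 ± 0.24 at 3 weeks (edgeR adjusted p = 0.861) and 0.45 ± 0.24 at 6 months (0.35 ± 0.25 without replicate 5). Its 6-month levels were 28.9, 32.1, 13.5, 18.1 and 18.8 CPM in Rosa26 livers and 40.7, 28.6, 28.4, 15.8 and 38.9 CPM in Hira-guide livers. The arms overlapped, with 2 Hira-guide libraries above all controls.

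Hamp (ENSMUSG00000050440.8, chromosome 7, 30942368 to 30944032, minus strand) had 924.5, 1044, 601, 1162 and 795 CPM in Rosa26 livers at 3 weeks and 764, 892, 792, 587 and 379 CPM in Hira-guide livers. The lowest 2 libraries were of the Hira-guide arm and the arms otherwise overlapped. Between the arms Hamp differed in log2 by −0.41 ± 0.21 (95% interval −0.82 to 0.01, edgeR adjusted p = 0.608).
At 6 months Hamp had 883, 1003, 911, 949 and 625 CPM in Rosa26 livers and 887, 922, 812, 523 and 675 CPM in Hira-guide livers. On the log2 scale the arms differed by −0.20 ± 0.21, or −0.15 ± 0.22 without replicate 5 of the Hira-guide livers. Mean Hamp was thus not higher in the arm in which Id1, Id3, Smad7 and Bmp6 had positive differences.

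Hamp2 (ENSMUSG00000056978.8, chromosome 7, 30922372 to 30924681, minus strand), 17686 bases from Hamp, varied more. At 3 weeks it had 261, 172, 350.3, 398 and 471 CPM in Rosa26 livers and 472, 446, 430.4, 441 and 325 CPM in Hira-guide livers (log2 fold change 0.36 ± 0.51, edgeR adjusted p = 0.924).
At 6 months it had 460, 235, 390.3, 384 and 524 CPM in Rosa26 livers and 125, 444, 316, 250 and 9.35 CPM in Hira-guide livers. The lowest library was replicate 5, with 184 counts where the other 19 libraries had 3188 to 11422. Its Hamp level of 675 CPM lay within the range of the other libraries. For Hamp2 at 6 months the log2 fold change was −0.80 ± 0.51 with this library and −0.49 ± 0.30 without it. It was −1.19 ± 0.53 without Hira-guide replicate 2 at 6 months and −1.39 ± 0.69 on log2(FPKM + 1), so the sign held and the size did not.

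**Figure D3:**
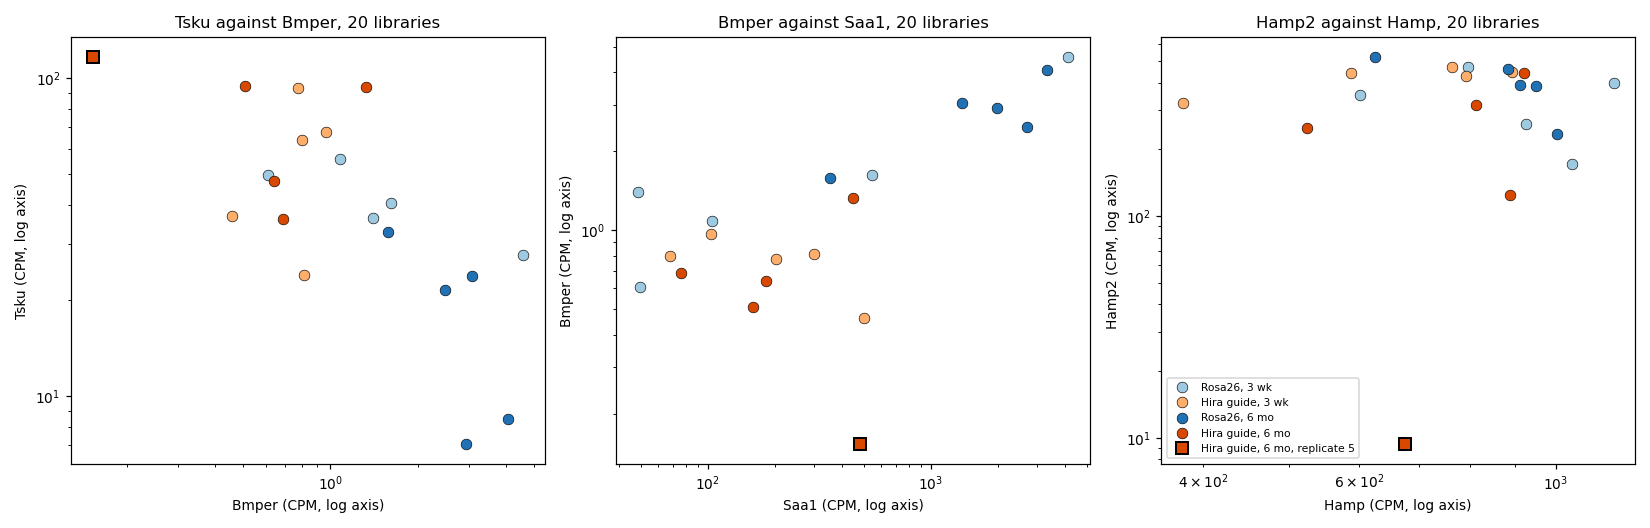
Tsku against Bmper, Bmper against Saa1 and Hamp2 against Hamp in CPM, on log axes, 1 point per library over 20 libraries in 4 groups; the square is replicate 5 of the Hira-guide livers at 6 months. The 5 libraries with the most Bmper have the most Saa1 and no more than 27.8 CPM of Tsku, and the square lies apart in Bmper and Hamp2.

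Across the 20 libraries, the log2 CPM values of Smad7 and Id1 had a Pearson r of 0.806, those of Bmp6 and Smad7 of 0.74 and those of Id1 and Id3 of 0.712. After subtraction of the group means the values were 0.634, 0.747 and 0.471, so these genes varied together from mouse to mouse inside the groups too. Tsku and Bmper had an r of −0.722 over all libraries and −0.375 within groups, and −0.676 and −0.284 without replicate 5 of the Hira-guide livers at 6 months. The points share library depth and scaling, and the groups differ in these genes by choice, so the values are a description.

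Bmper also moved with acute-phase genes, whose products the liver releases in inflammation. The 5 libraries with the most Bmper, Rosa26 replicate 2 at 3 weeks (4.59 CPM) and Rosa26 replicates 2 to 5 at 6 months (2.47 to 4.08 CPM), were those with the most serum amyloid A1 (Saa1), at 4130 CPM in the first and at 1371 to 3302 CPM in the others. In the remaining 15 libraries Saa1 was between 48.5 and 546 CPM. Over 20 libraries the r of Bmper was 0.654 with Saa1, 0.662 with Saa2 and 0.764 with Lcn2, and 0.494, 0.511 and 0.668 within groups. With Hp, Orm1 and Crp it was 0.593, 0.637 and 0.634 over all libraries and 0.392, 0.348 and 0.149 within groups. Without replicate 5 of the Hira-guide livers at 6 months the r of Bmper within groups was 0.407 (Crp) to 0.774 (Lcn2). Without Rosa26 replicate 2 at 3 weeks, however, the values within groups were 0.152 with Saa1, 0.174 with Saa2, 0.426 with Lcn2 and −0.21 to −0.072 with the other 3 genes. Those over all libraries were 0.473 to 0.708. The relation of Bmper within groups thus rested on this library for all but Lcn2, for which it was weaker without it. For Id1 the r was −0.563 with Saa1 and −0.628 with Lcn2 (−0.434 and −0.426 within groups), and for Tsku −0.596 and −0.669 (−0.287 and −0.419 within groups). For Hamp, a gene that inflammation can induce, it was 0.126 with Saa1 and 0.18 with Lcn2 (−0.046 and −0.057 within groups). Over the 6 acute-phase genes the r within groups was −0.588 to −0.392 for Bmp6, −0.524 to −0.34 for Smad7 and −0.672 to −0.158 for Id3, and it was −0.477 to −0.163 for Smad6, −0.418 to −0.144 for Hamp2 and −0.152 to 0.21 for Atoh8. For Hamp2 the range was −0.66 to −0.233 without replicate 5 of the Hira-guide livers. Without Rosa26 replicate 2 at 3 weeks the r with Saa1 within groups was −0.131 for Id1, −0.205 for Tsku, −0.225 for Bmp6, −0.189 for Smad7, −0.427 for Id3 and −0.236 for Hamp. With Lcn2 it was then −0.077 for Id1, −0.406 for Tsku, −0.463 for Bmp6, −0.379 for Smad7, −0.389 for Id3 and −0.288 for Hamp. These genes were picked after their values were seen, and the part of inflammation in the values of the 10 genes was not tested.

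By likeness of log2 CPM over 20 libraries among 12902 genes with at least 1 CPM on average, the nearest genes to Tsku were Il20rb (r = 0.898), Dusp3 (0.868), Fitm2 (0.855), Asb6 (0.853) and Pde12 (0.833). Those nearest to Bmper were Snx12 (0.872), Dcaf7 (0.871), Ccl9 (0.87), Slc25a15 (0.86) and Sdc1 (0.858). Within groups these values were lower, for example 0.759 for Il20rb with Tsku and 0.637 for Ccl9 with Bmper. The nearest genes to Hamp reached only 0.694 (Arfgap1), 0.691 (Rab12), 0.69 (Rexo5), 0.68 (Rars2) and 0.679 (Snrpd1).

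With time, none of the 8 members tested was called in either arm. In Rosa26 livers, 37 genes (0.162%) were called between 3 weeks and 6 months. Atoh8 was lower at 6 months by a log2 difference of −0.65 ± 0.24 (edgeR adjusted p = 0.25), and its mean was 34.8 ± 5.54 CPM at 3 weeks and 22.3 ± 7.88 CPM at 6 months. The other 7 differed by −0.45 (Id1) to 0.27 (Hamp2). In Hira-guide livers, 13 genes (0.0569%) were called. There Smad6 differed by 0.37 ± 0.11 (edgeR adjusted p = 0.289), Id3 by −0.42 ± 0.19 (edgeR adjusted p = 0.519), Id1 by −0.55 ± 0.29 (edgeR adjusted p = 0.599) and Hamp2 by −0.89 ± 0.51 (edgeR adjusted p = 0.651). Without replicate 5 these values were 0.41 ± 0.12, −0.36 ± 0.19, −0.42 ± 0.29 and −0.58 ± 0.29, none of them called. At an unadjusted p under 0.05 there were 1 of 8 members in Rosa26 livers (Atoh8, 12.8% of all genes) and 2 of 8 in Hira-guide livers (Smad6 and Id3, 8.95%), and DESeq2 called 0 in both.

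The difference of the arms was not shown to change between the times for any gene, as 0 of 22867 (0%) were called for it by edgeR, with 1514 at an unadjusted p under 0.05 and a smallest edgeR adjusted p of 0.614. DESeq2 and limma on FPKM called 0 members and 0 of the list genes described below. For Tsku the estimate of this change was 1.60 ± 0.56 and for Bmper −0.79 ± 0.65 on the log2 scale, or 1.41 ± 0.56 and −0.55 ± 0.61 without replicate 5 of the Hira-guide livers, given without a test. The difference of Tsku at 6 months alone is therefore not evidence that its response differs from that at 3 weeks.

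Other genes of the pathway, and genes around it, were taken from 8 lists with 130 symbols. Besides ligands, receptors, SMAD transducers, extracellular binders and other targets, the lists held iron handling, inflammatory inputs and the proteoglycan family of Tsku. Counts over all lists are therefore not counts of pathway genes alone. Of the symbols, 128 were in the table and 120 were tested. At 3 weeks, edgeR called none of them (0.114% of all genes were called), 20 had an unadjusted p under 0.05 where 8.87% of all genes did, and DESeq2 called 1. Without Rosa26 replicate 2, 12 of 119 had such a p and none was called. The median of the 120 log2 fold change was −0.01, as over all genes. Of the 120, 1 had all Hira-guide libraries above the controls and 5 had all below, where 1.45% and 1.24% of all genes did.
At 6 months 2 were called, both higher, against 0.332% of all genes, 76 had a positive and 44 a negative value, and the median was 0.10 against 0.03 over all genes. Without replicate 5 of the Hira-guide livers these counts were 1 called, 77 positive and 43 negative, with a median of 0.09. The Rosa26 and Hira-guide libraries did not overlap in 2 of them (1.41% of all genes were higher in this way), Bmp7 and the SMAD ubiquitin ligase Smurf1, the latter at 0.39 ± 0.10 in log2 (edgeR adjusted p = 0.0613) and at 0.28 ± 0.09 without replicate 5. In neither time contrast nor the change of the arms' difference was a list gene called by edgeR.

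**Figure D4:**
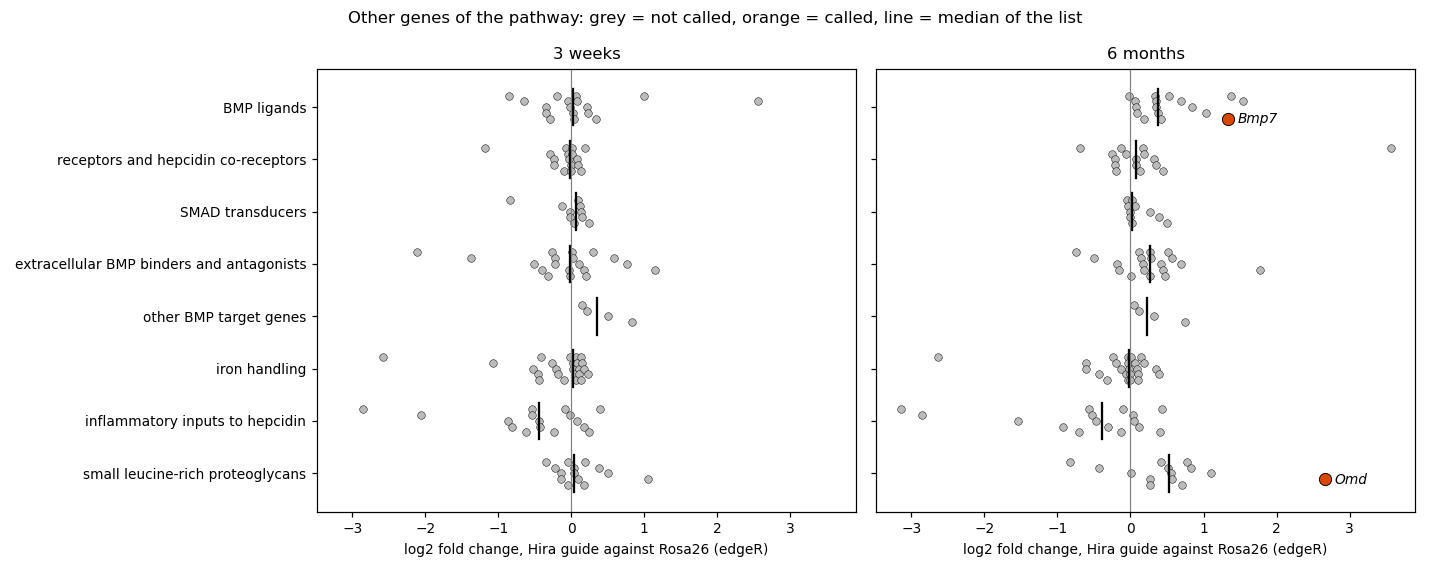
Log2 fold change of Hira-guide against Rosa26 livers for 120 genes in 8 lists around the pathway, at 3 weeks (left) and 6 months (right), from edgeR. Grey points were not called, orange points were called and lines are list medians. Only Bmp7 and Omd were called, both at 6 months. The medians there are 0.38 for the list of BMP ligands, which also holds TGF-beta and activin genes, and 0.53 for small leucine-rich proteoglycans.

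Bmp7 (chromosome 2, 172868012 to 172940321, minus strand) encodes a BMP ligand best known from kidney and bone. It had 14, 32, 29, 19 and 30 counts in Rosa26 livers at 6 months and 75, 58, 69, 75 and 40 counts in Hira-guide livers. At 3 weeks it had 12, 23, 21, 22 and 32 counts in Rosa26 livers and 35, 56, 48, 44 and 40 counts in Hira-guide livers. Every Hira-guide library lay above every control at both times. At 6 months Bmp7 was higher in Hira-guide than in Rosa26 livers, with a log2 value of 1.34 ± 0.25 (edgeR adjusted p = 0.0141). The call was lost without Rosa26 replicate 4 (edgeR adjusted p = 0.0517) and in a fit of the 6-month libraries alone (1.33 ± 0.27, edgeR adjusted p = 0.104). It was also lost on log2(FPKM + 1), where the value fell under the fold threshold (0.42 ± 0.07). Without replicate 5 of the Hira-guide livers the value was 1.43 ± 0.25 (edgeR adjusted p = 0.00781). At 3 weeks the value was 0.99 ± 0.25 (edgeR adjusted p = 0.122). Over the alternatives the 3-week value was 0.25 to 1.15. Their smallest adjusted p was under 0.05, but Bmp7 was called in none of them. The list of BMP ligands also held related genes of the TGF-beta family (Tgfb1, Tgfb2, Tgfb3, Gdf15, Inha, Inhba, Inhbb, Inhbc and Inhbe). The 16 other genes of this list tested at 6 months were not called. Of all 17, 16 had positive values (15 without replicate 5), with Inhbc, the most abundant, at 0.35 ± 0.27 (edgeR adjusted p = 0.583) and Inhbe at 0.35 ± 0.28 (edgeR adjusted p = 0.597). Without replicate 5 these 2 values were 0.01 ± 0.23 and −0.06 ± 0.22.

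Omd (chromosome 13, 49582462 to 49592822, plus strand) encodes osteomodulin, which belongs with Tsku to the small leucine-rich proteoglycans. It had 4, 3, 1, 3 and 7 counts in Rosa26 livers at 6 months and 10, 7, 25, 7 and 64 counts in Hira-guide livers, the last in replicate 5. At 6 months Omd was higher in Hira-guide than in Rosa26 livers by 2.66 ± 0.63 in log2 (edgeR adjusted p = 0.0379). Without replicate 5 the value was 1.67 ± 0.48 (edgeR adjusted p = 0.0778) and the call was lost. The call was also lost without any of Rosa26 replicates 1 to 4 or without Hira-guide replicate 3 at 6 months (edgeR adjusted p = 0.0559 to 0.112, log2 values 2.42 to 2.68), in a fit of the 6-month libraries alone and on FPKM. DESeq2 did not call Omd either, as it gave no adjusted p for the gene (log2 value 2.70 ± 0.68). Of the 14 members of the family tested, 12 had positive values at 6 months, with or without replicate 5, including the abundant Dcn at 0.51 ± 0.21 (edgeR adjusted p = 0.251) and Bgn at 0.57 ± 0.24 (edgeR adjusted p = 0.261), or 0.65 ± 0.20 and 0.72 ± 0.23 without it. The summed level of the 8 stellate cell markers was 102 to 188 CPM in Rosa26 and 115 to 300.1 CPM in Hira-guide livers at 6 months, or 181 to 300.1 CPM without replicate 5. All 8 had a positive log2 fold change there, from 0.11 to 0.48 with the library and 0.33 to 0.62 without it. Their part in these values was not tested.

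Of the 16 receptors and co-receptors tested, none was called, and transferrin receptor 2 (Tfr2) and the hemojuvelin protease Tmprss6 differed by −0.25 ± 0.13 (edgeR adjusted p = 0.384) and −0.06 ± 0.09 (edgeR adjusted p = 0.82) at 6 months. None of the 10 SMAD transducers was called, with Ski at −0.05 ± 0.14 (edgeR adjusted p = 0.918) and Smurf2 at 0.02 ± 0.09 (edgeR adjusted p = 0.941). Among 19 other extracellular binders and antagonists none was called and 15 had positive values (14 without replicate 5), with the procollagen protease Bmp1 at −0.16 ± 0.12 (edgeR adjusted p = 0.575) and Twsg1 at 0.11 ± 0.10 (edgeR adjusted p = 0.654). The 4 other BMP target genes tested were all positive at both times (3 of 4 at 6 months without replicate 5) and none was called, with Id2 at 0.05 ± 0.14 (edgeR adjusted p = 0.921) and Id4 at 0.33 ± 0.36 (edgeR adjusted p = 0.734) at 6 months. Without replicate 5 these were −0.08 ± 0.13 and 0.57 ± 0.30, those of Tfr2 and Tmprss6 −0.29 ± 0.14 and −0.09 ± 0.09, those of Ski and Smurf2 0.03 ± 0.13 and −0.01 ± 0.09, and those of Bmp1 and Twsg1 −0.18 ± 0.13 and 0.06 ± 0.10, none of them called.

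Of 24 genes of iron handling, none was called at either time. Transferrin (Trf), at 23470 CPM on average the most abundant, differed by −0.02 ± 0.14 at 3 weeks (edgeR unadjusted p = 0.896). At 6 months it differed by −0.03 ± 0.14 (edgeR unadjusted p = 0.808). Hemopexin (Hpx) differed by −0.45 ± 0.22 at 3 weeks (edgeR adjusted p = 0.575) and −0.44 ± 0.22 at 6 months (edgeR adjusted p = 0.357). Of 16 inflammatory inputs, 12 had negative values at 3 weeks and 11 at 6 months, and none was called. Saa1 differed by −2.06 ± 0.97 (edgeR adjusted p = 0.55) and −2.85 ± 0.99 (edgeR adjusted p = 0.159), and Orm1 by −0.53 ± 0.31 (edgeR adjusted p = 0.686) and −0.93 ± 0.32 (edgeR adjusted p = 0.147). Both 3-week values rested on 1 control, Rosa26 replicate 2, which had 4130 CPM of Saa1 and 2891 CPM of Orm1. Without it they were 0.32 ± 0.74 and 0.03 ± 0.22, that of Hpx was −0.13 ± 0.17, and 8 of the 16 inflammatory inputs were negative. DESeq2 called haptoglobin (Hp) at 3 weeks, and Lcn2 and Saa2 at 6 months, all lower in Hira-guide livers, and in edgeR the 3-week value of Hp was −1.07 with Rosa26 replicate 2 and −0.57 without it. Without replicate 5, edgeR called none of these genes at 6 months, and the values were 0.04 ± 0.13 for Trf, −0.44 ± 0.24 for Hpx, −3.17 ± 1.10 for Saa1 and −1.03 ± 0.34 for Orm1.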

How the data were processed

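RNA-seq was available for 20 livers, grouped by the sample titles. Per the submitters' processing notes the tools were STAR, HTSeq and Cufflinks with the build mm10, whereas the methods name HOMER for counting; the version of the counter and its strand setting are not stated there. The authors deposited raw counts per gene, which are not normalized, and FPKM values. A passage of the study's results names male mice for these livers, whereas its legend and the labels name female. Of 55421 identifiers, 98.7% match GENCODE M21.

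The main test was edgeR 4.0.16 (glmQLFit and glmQLFTest, two-sided) in R 4.3.3, with TMM scaling, genes with at least 10 counts in total and a mean for each of 4 groups over 20 libraries. P-values were adjusted by Benjamini-Hochberg over 22867 genes. Called means adjusted p under 0.05 and absolute log2 fold change above 1. The SE of a log2 fold change was derived from its F statistic. Alternatives were DESeq2 1.42.0, other scaling and filters, the libraries of a contrast alone, the replicate number as a block, leaving out each library, and limma 3.58.1 on log2(FPKM + 1) or log2(FPKM + 0.1) for the 18022 genes with an FPKM value in every library; these fold changes understate those of low genes. The scripts were tested on simulated data. Figures were drawn with matplotlib 3.10.9 in Python 3.11.15.

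The members and lists were chosen with earlier results of these data known. Named are the members, Hira, list genes that were called and the 2 most abundant genes of each list, and for Tsku, Bmper and Hamp the 5 most similar named genes; Smurf1, Oit3, Hp, Lcn2, Saa2 and the comparison with acute-phase genes were picked with their values known. Values without replicate 5 for correlations, list counts, single list genes, markers, Hira and the change of the arms' difference, and correlations without Rosa26 replicate 2 at 3 weeks, were added after seeing the data. No 2 libraries held the same counts. Sequences are from RefSeq and GENCODE tables. The 95% interval of a log2 fold change is a normal interval around it.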

Additional observations from a re-analysis of the deposited data

Results flagged for a closer look

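Groups of 5 livers were searched for a library far from the other 4 on the log2 CPM scale, for the 10 genes and 24 others whose values are given (136 groups). Chance gives about 1 in 20 such groups, and 8 were found. Bmp6 was low in Rosa26 replicate 4 at 6 months (102 counts, 2.27 log2 CPM, others 2.99 to 3.19). Smad7 was high in Rosa26 replicate 4 at 3 weeks (649 counts, 4.88 log2 CPM, others 3.59 to 3.96). Hamp was low in Rosa26 replicate 5 at 6 months (13634 counts, 9.29 log2 CPM, others 9.79 to 9.97). Hamp2 was low in Hira-guide replicate 5 at 3 weeks (6819 counts, 8.35 log2 CPM, others 8.75 to 8.88). Trf was low in Hira-guide replicate 5 at 6 months (352028 counts, 14.13 log2 CPM, others 14.47 to 14.57). Hpx was high in Hira-guide replicate 1 at 3 weeks (123168 counts, 12.47 log2 CPM, others 12.05 to 12.13). Orm1 was high in Rosa26 replicate 2 at 3 weeks (57907 counts, 11.5 log2 CPM, others 9.57 to 10.03). Lcn2 was low in Rosa26 replicate 1 at 6 months (1084 counts, 5.53 log2 CPM, others 7.93 to 8.86).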

How the results depend on the processing

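Of 2022 log2 fold changes under the alternatives, over 34 genes in the comparisons in which their values are given, 1978 kept their sign and 44 changed it or reached 0. Members called stayed at 0 under every alternative at 3 weeks, for time in either arm and for the change of the arms' difference. Tsku and Bmper were chosen on the 6-month contrast, so the count of members called there is no test of them. That count (2) became 0 in a fit of the 6-month libraries alone and 1 with log2(FPKM + 1), with or without a mean FPKM of at least 1, and ranged from 0 to 2 when single libraries were left out, while their fold changes kept their sign under every alternative. List genes called at 6 months (2) became 1 with filterByExpr or log2(FPKM + 0.1). They became 0 in the fit of the 6-month libraries alone or with log2(FPKM + 1), with or without the FPKM filter. Without single libraries they ranged from 0 to 3. DESeq2 called 3 at 6 months (Bmp7, Lcn2 and Saa2, not Omd) and 1 at 3 weeks (edgeR 0), and with time in Rosa26 livers (0) the range without single libraries was 0 to 1. At 6 months Smad6 (0.056) ranged from −0.004 to 0.108 when single libraries were left out. Signs also changed, or reached 0, for Bmp6 (−0.289 to 0), Smad7 (−0.311 to 0.083) and Hamp (−0.167 to 0.056) with time in Rosa26 livers, and for Bmp6 (−0.064 to 0.118, and −0.001 with log2(FPKM + 1) under both filters), Atoh8 (−0.062 to 0.226) and Bmper (−0.597 to 0.054) with time in Hira-guide livers, when single libraries were left out. Between the arms at 3 weeks, leaving out single libraries gave −2.539 to 0.323 for Saa1, −0.669 to 0.028 for Orm1 and −0.076 to 0.024 for Trf. At 6 months it gave −0.115 to 0.036 for Trf, −0.057 to 0.503 for Inhbe, −0.215 to 0.033 for Ski, −0.049 to 0.085 for Smurf2, −0.08 to 0.17 for Id2 and −0.086 to 0.574 for Id4. On FPKM, under each pseudocount and filter, Trf was 0.015 at 3 weeks and 0.176 at 6 months, and Hira at 6 months was 0.032 with log2(FPKM + 1), with or without the filter, and 0.036 with log2(FPKM + 0.1). The cause was not tested. Over all genes, the 26 calls at 3 weeks ranged from 3 to 64 over the alternatives, the 76 at 6 months from 0 to 127, the 37 with time in Rosa26 livers from 1 to 157 and the 13 in Hira-guide livers from 3 to 74.

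Arms share replicate numbers, and the correlations of deviations of same-numbered libraries were 0.004 to 0.295 at 3 weeks and −0.125 to 0.296 at 6 months, over 0.1 in 2 of 5 pairs at each time. Of 5 libraries per group, 1 (Hira guide) and 2 (Rosa26) at 3 weeks and 1 and 0 at 6 months correlated best with their own number, so the numbers were not taken as pairs. With the replicate block, members called were 0 at 3 weeks and 2 at 6 months, and list genes 0 and 2. All genes called were 27 and 72, with 61 and 26 for time in the Rosa26 and Hira-guide arms.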
